A study of Bos taurus with 24 samples.

Results

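These results describe what changed in bovine muscle satellite cells grown without fibroblasts between 24 h and 72 h after the change to differentiation medium. RNA sequencing libraries were chosen by their titles: 4 of monoculture at 72 h of differentiation against 4 of monoculture at 24 h, 8 of the 24 libraries of the series. Satellite cells are the stem cells of skeletal muscle. Here they came from the longissimus dorsi and were a mix of 3 lines at passage 3, plated at 8000 cells/cm2 and kept for 5 days in medium with 20% fetal bovine serum. Both groups of libraries then had the same medium with 10% horse serum, for 24 h or for 72 h, and both are the same mix of lines, with no fibroblasts. The rest of the series holds 4 monoculture libraries from before the change of medium (proliferation) and 12 libraries of satellite cells cocultured with passage 10 fibroblasts across 0.4 µm pores at the same times. Nothing in the labels tells if an empty insert hung in the monoculture wells, or if replicates were separate cultures; the p-values therefore rest on a spread between samples that may be only technical.

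As background, satellite cells leave the cell cycle when serum is lowered, and those that commit to muscle switch on myogenin, fuse and assemble sarcomeres. Cells that do not commit can persist as quiescent reserve cells. Leaving the cycle lowers the genes of DNA replication, which E2F factors drive, and the mitotic genes that the DREAM complex holds down in resting cells. Cultured muscle cells also make much of the collagen-rich matrix around them, and they respond to growth factors through immediate early genes, which are transcribed within minutes of a signal.

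Totals ran from 16.2 to 23.9 M counts in the 24 h libraries and from 14.97 to 22.6 M at 72 h, all sequenced in lane 6. Levels below are in CPM, the count over the library total in M, after scaling by the TMM method, which evens out library composition. The first principal component of log2 CPM over the 8 libraries held 78.3% of the variance and separated the times, and the second held 7.39% and set 72 h replicate 3 apart. That library was also the farthest from replicates 1 and 2 in counts (chi-square per degree of freedom 71.7 and 74.5, against 5.8 between replicates 1 and 2). Mitochondrially encoded genes took 3.03% ± 0.218 of counts at 24 h and 2.37% ± 0.167 at 72 h (SD, n = 4; exact permutation p = 0.0286, the smallest that 4 against 4 allows; adjusted over 5 shares p = 0.0357). Nuclear ribosomal RNA took 0.281 to 0.934% at 24 h and 0.590, 0.284, 2.14 and 1.76% in the 72 h libraries in order of replicate (exact permutation p = 0.343). Calls lost without 72 h replicate 3 are named beside the genes.

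**Figure D1:**
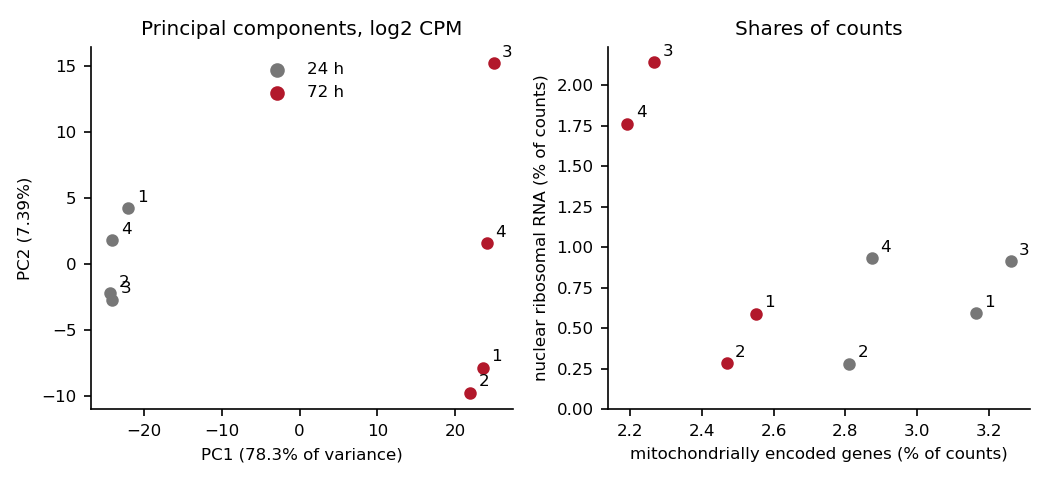
Left, the 8 monoculture libraries on the first and second principal components of log2 CPM (78.3% and 7.39% of variance); right, each library's share of counts from mitochondrially encoded genes against that from nuclear ribosomal RNA, both in percent. Points are libraries, numbered by replicate, grey at 24 h and red at 72 h; the 4 libraries of 72 h lie to the right on the first component, and 72 h replicates 3 and 4 hold more ribosomal RNA (2.14 and 1.76%) than the other 6 (at most 0.934%).

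The label was set against marker genes, of which too few were measured to verify the identity of the cells. Of 10 satellite cell and myoblast markers, ITGA7, CD82, DES, NCAM1 and SDC4 were measured, and PAX7, MYF5, MYOD1, CDH15 and VCAM1 were not analysed here. Of 11 markers of differentiated muscle only MYOM1 was measured, at 6.85 ± 0.356 to 4.00 ± 0.183 CPM (SD, n = 4); MYOG, MYMK, MYMX, MYH3, MYH8, ACTA1, ACTC1, CKM, TNNT3 and TTN were not analysed here. Every one of the 11937 genes used has at least 6 counts in each of the 24 libraries, so a gene silent in any of them is outside this description, and the calls below say nothing of it.

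From 24 h to 72 h the satellite cells had less RNA of the genes of cell division, and much more of several immediate early, matrix and complement genes. In edgeR's quasi-likelihood test 6430 of 11937 genes (53.9%) were called at an adjusted p under 0.05, 3255 higher at 72 h (27.3%) and 3175 lower (26.6%). Most called changes were small, with a median size of 0.37 on the log2 scale, and 716 genes (6.00%) changed at least 2-fold. Of these 337 were higher (2.82%) and 379 lower (3.18%). Rises reached further than falls: 84 genes rose and 89 fell at least 4-fold, and at least 8-fold 31 rose and 0 fell. The 4 libraries of 24 h and the 4 of 72 h did not overlap in 4929 genes (41.3%), 4789 of them called. Scaling sets the balance of directions: with library sizes alone the median over all genes was -0.13 in place of 0.00, and 1788 genes were called higher and 4834 lower, so 27% of calls were rises against 50.6%. Counts under that scaling are given beside each gene list as "with library sizes alone". Counts of called members in each list stand against 27.3% of all genes called higher and 26.6% lower.

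**Figure D2:**
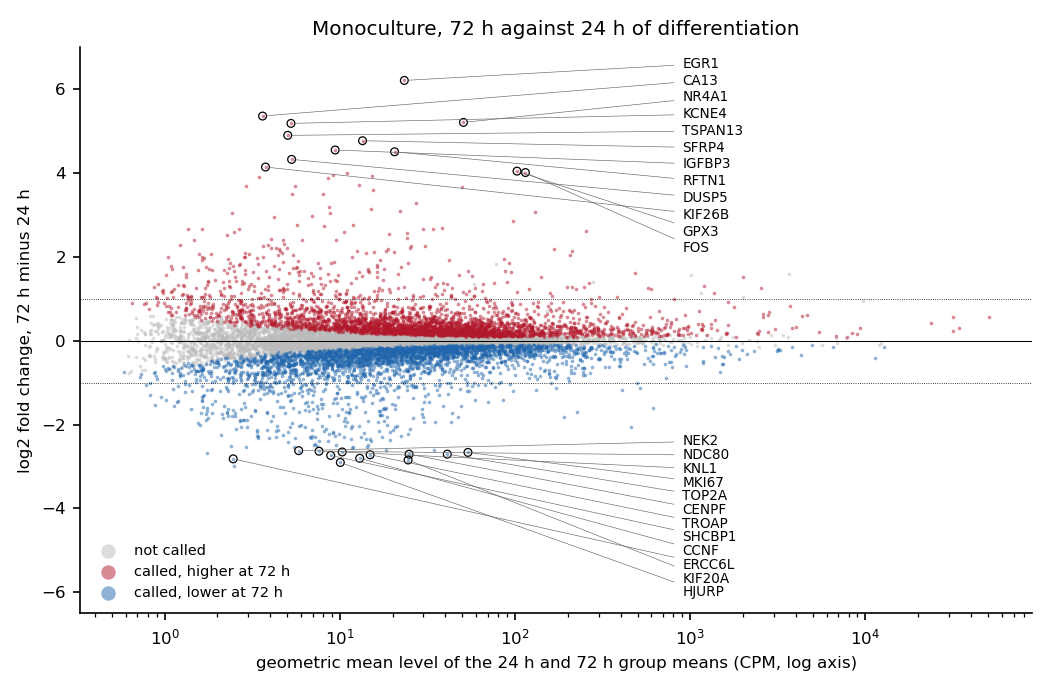
Log2 fold change from 24 h to 72 h in monoculture (vertical axis) against the geometric mean of the group levels in CPM (log axis), 1 point per gene, red where called higher, blue where called lower, grey where not called; dotted lines mark 2-fold. The named genes are the 12 largest rises, led by EGR1 at 6.20, and the 12 largest falls, which lie between -2.90 (HJURP) and -2.62 (NEK2).

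Genes of cell division fell. MKI67, which encodes the Ki-67 antigen of dividing cells, was at 118, 145, 139 and 141 CPM at 24 h and 22.7, 24.9, 16.9 and 20.8 CPM at 72 h, a log2 change of -2.66 ± 0.090 with its SE (edgeR adjusted p = 3.04e-21). The highest 72 h library stood far below the lowest 24 h library, and within each time the 4 libraries lay close together. KIF20A, a kinesin of the late mitotic spindle, was at 61.5, 69.7, 65.7 and 67.1 CPM at 24 h and 10.2, 9.42, 8.88 and 7.98 CPM at 72 h (-2.84 ± 0.070, edgeR adjusted p = 9.72e-25). TOP2A, the topoisomerase that untangles replicated chromosomes, was at 92.2, 109, 108 and 109.7 CPM at 24 h and 15.3, 19.3, 12.6 and 17.1 CPM at 72 h (-2.71 ± 0.079). In all 3 genes the groups did not overlap, which the rule for picking the 12 largest rises and 12 largest falls required. The lowest 72 h value of MKI67 and TOP2A was in replicate 3. In bulk RNA, fewer dividing cells and less of this RNA per dividing cell cannot be told apart.

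The other falls among the 12 largest with a symbol were HJURP (-2.90), which loads the centromeric histone, ERCC6L (-2.82), a DNA translocase of anaphase bridges, the cyclin CCNF (-2.80), SHCBP1 (-2.73), a protein of the midbody, TROAP (-2.72), a spindle-associated protein, the kinetochore proteins CENPF (-2.71), KNL1 (-2.65) and NDC80 (-2.63), and the centrosomal kinase NEK2 (-2.62). CCNB1, the cyclin of entry into mitosis, was at 43.5, 46.8, 42.4 and 42.8 CPM at 24 h and 7.30, 9.93, 7.73 and 9.38 CPM at 72 h (-2.37 ± 0.087). A gene without a symbol had the largest fall of all, by 2.99 on the log2 scale from 7.12 to 0.863 CPM. Beside these falls, the earlier change in the same monoculture, from proliferation to 24 h, was 0.33 for MKI67, -0.05 for TOP2A (edgeR adjusted p = 0.478), -0.06 for CCNB1 (adjusted p = 0.471) and 1.25 for TROAP. In that earlier comparison 8179 genes were called (68.5%), 34.3% of all genes higher and 34.2% lower. Both comparisons use the 24 h libraries, so their values are set side by side only. The proliferation libraries also carry a different label code from those of 24 h and 72 h, which cannot be told apart from time in the earlier comparison.

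Of 60 genes of mitosis and the kinetochore, all 60 were lower, 59 of them at least 2-fold, where 26.6% of all genes were lower. Their median was -2.13 on the log2 scale against 0.00 over all genes. None was higher by edgeR's test, by an unadjusted p or by DESeq2, and the same 60 were lower with library sizes alone. DNA replication and S phase genes were lower in 43 of 48 cases and higher in 0 (also 0 by unadjusted p and by DESeq2; 46 and 0 with library sizes alone), with a median of -0.98. RRM2, the ribonucleotide reductase subunit that supplies DNA synthesis, was at 47.3, 67.4, 59.7 and 63.9 CPM at 24 h and 16.2, 16.4, 13.9 and 15.5 CPM at 72 h (-1.94 ± 0.083, edgeR adjusted p = 9.3e-19). All 72 h libraries of RRM2 lay below all of 24 h. E2F8 (-2.53), an E2F family repressor, the checkpoint adaptor CLSPN (-2.32), the maintenance methylation partner UHRF1 (-1.94) and the origin protein ORC1 (-1.67) also fell. DNA repair genes were lower in 18 of 26 cases and higher in 1 (22 and 0 with library sizes alone), as BRCA1 (-1.57 ± 0.10), which guides repair by recombination, and FANCI (-2.03) of the Fanconi pathway; the 1 that rose was PARP1 (0.14), named after its value was seen. These lists made up 89 of the 379 genes that fell at least 2-fold.

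Regulators of cell cycle exit moved in both directions, 17 of 41 higher and 8 lower (11 and 13 with library sizes alone, where the order turns). CDKN1A, the p21 inhibitor, was at 297, 370, 378 and 360.2 CPM at 24 h and 381, 378, 351 and 363 CPM at 72 h, a log2 of 0.07 ± 0.053 that was not called (edgeR adjusted p = 0.288). Its groups overlapped, and its 24 h change from proliferation had been 0.63. BTG2, an antiproliferative gene that is also an immediate early gene, rose by 2.27 ± 0.14, and CCND1, the D-type cyclin of G1, rose by 1.08 ± 0.079. The pocket protein RBL1 (-1.05), its MuvB partner LIN9 (-1.25), the CDK4 inhibitor CDKN2C (-1.03) and the antiproliferative TOB2 (-1.09) fell.

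**Figure D3:**
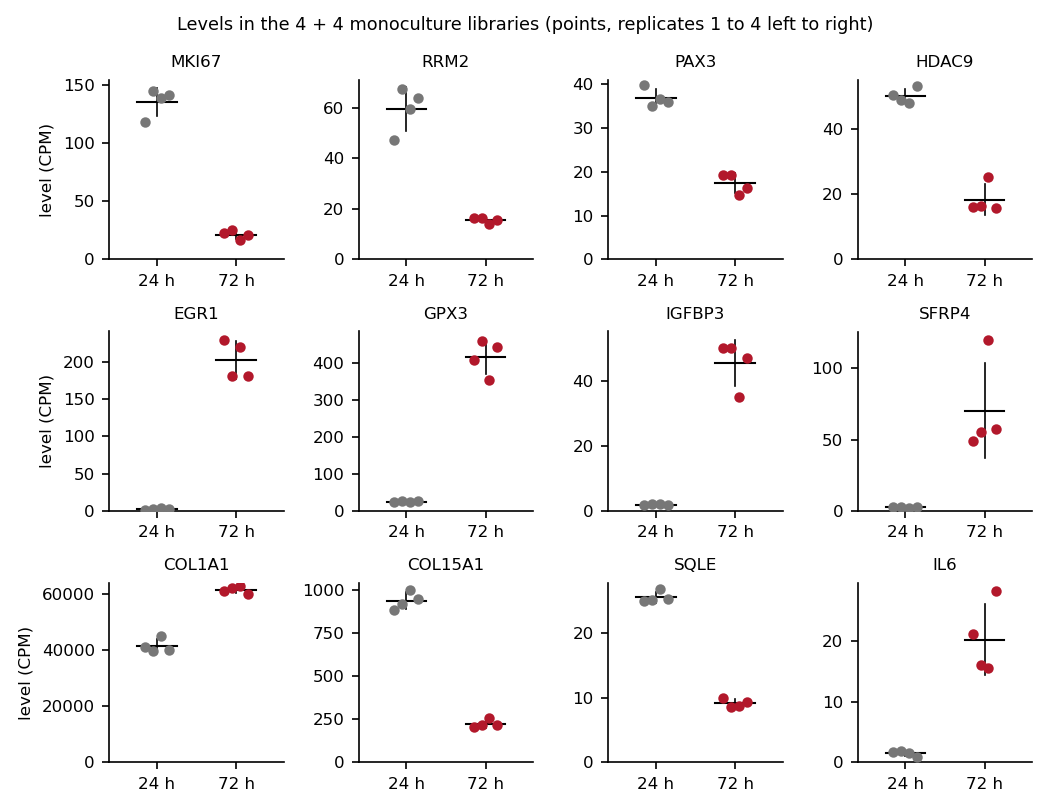
Levels in CPM of 12 genes in the 4 monoculture libraries of 24 h (grey) and the 4 of 72 h (red), replicates 1 to 4 from left to right, each axis starting at 0; horizontal lines are means and vertical lines SD (n = 4). In each of the 12 genes the 24 h and 72 h points do not overlap, as in 41.3% of all genes. No overlap was required of those picked as the largest rises and falls. MKI67 falls from 136 to 21.4 CPM and EGR1 rises from 2.69 to 203 CPM.

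Genes of muscle identity did not move as a body. Of 12 satellite cell and quiescence genes measured, 6 were higher and 5 lower (4 and 6 with library sizes alone, where the order turns). NCAM1, the neural cell adhesion molecule of satellite cells and myoblasts, was at 12.5, 13.1, 12.2 and 14.2 CPM at 24 h and 45.2, 49.4, 47.3 and 44.4 CPM at 72 h (1.84 ± 0.064, edgeR adjusted p = 4.6e-21). Its 72 h libraries were all more than 3 times the highest 24 h library. PAX3, a paired box factor of muscle progenitors, was at 39.7, 35.1, 36.7 and 35.8 CPM at 24 h and 19.3, 19.2, 14.8 and 16.3 CPM at 72 h (-1.07 ± 0.068, edgeR adjusted p = 2.14e-14). Here every 72 h library was lower than every 24 h library. HEYL, a Notch effector of quiescent satellite cells, fell by 1.18 ± 0.080 on the log2 scale. SDC4, a heparan sulfate proteoglycan of satellite cells, rose by 0.68, FGFR1 by 0.50 and the FGF feedback inhibitor SPRY1 by 0.58. ITGA7, the laminin-binding integrin of muscle, was at 140.3, 121, 135 and 126 CPM at 24 h and 162, 160.5, 148 and 151 CPM at 72 h, a rise of 0.25 ± 0.077 (edgeR adjusted p = 0.00725) that was lost with library sizes alone (0.12, adjusted p = 0.192).

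Myogenic regulators were lower in 12 of 22 cases and higher in 3 (15 and 3 with library sizes alone). HDAC9, a class IIa histone deacetylase that represses MEF2 factors, was at 50.6, 48.9, 48.1 and 53.1 CPM at 24 h and 16.1, 16.4, 25.4 and 15.7 CPM at 72 h (-1.45 ± 0.11, edgeR adjusted p = 1.13e-12). In this gene 72 h replicate 3 was the highest of its group and still below every 24 h library. MEF2C, a MADS box activator of muscle genes, was at 3.46, 3.64, 2.95 and 2.76 CPM at 24 h and 1.79, 1.97, 2.12 and 2.00 CPM at 72 h (-0.72 ± 0.14, edgeR adjusted p = 4.74e-05). The transcriptional cofactors EYA4 (-1.16) and EYA2 (-0.58) also fell. Among the ID inhibitors of MYOD-type factors, ID2 fell (-0.69) and ID3 rose (0.68).

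Structural and membrane genes of muscle gave a mixed picture. Only 17 genes of the 53 symbols in the sarcomere list were measured, 5 higher and 7 lower (3 and 10 with library sizes alone). XIRP1, an actin-binding protein of muscle attachment sites that rises after injury, was at 1.13, 0.878, 1.53 and 0.691 CPM at 24 h and 6.67, 6.66, 7.98 and 5.54 CPM at 72 h (2.66 ± 0.22, edgeR adjusted p = 1.05e-11). MYL4, the embryonic and atrial light chain, was at 0.880, 1.5, 1.37 and 0.816 CPM at 24 h and 3.00, 2.71, 4.44 and 2.88 CPM at 72 h (1.45 ± 0.20), with its highest value in 72 h replicate 3. Both genes stood above every 24 h library in all 4 libraries of 72 h. MYOM1, a titin-linked protein of the M-band, fell by 0.77 ± 0.13 on the log2 scale. CRYAB, a small heat shock protein, was at 185, 196, 184 and 189 CPM at 24 h and 87.8, 82.8, 197 and 88.1 CPM at 72 h (-0.73 ± 0.15). Its 72 h replicate 3 lay above every 24 h library and the other 3 far below, and without that library the change was -1.13. The fall of MYL6B (-0.41, edgeR adjusted p = 0.0232) was lost without 72 h replicate 3 (-0.33, adjusted p = 0.079) or without 24 h replicate 2 (-0.37, adjusted p = 0.0675).

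Of 16 genes of excitation-contraction coupling and the neuromuscular junction, 8 were higher and 3 lower (7 and 4 with library sizes alone). The sarcoplasmic calcium buffer CASQ2 was at 5.78, 4.85, 4.69 and 4.08 CPM at 24 h and 9.96, 10.5, 12.3 and 8.94 CPM at 72 h (1.10 ± 0.15). The acetylcholine receptor subunit CHRNB1 (0.80), the muscle enolase ENO3 (0.68), the intermediate filament DES (0.55) and the calcium pump ATP2A2 (0.50) rose, and the brain creatine kinase CKB fell (-0.67). Myoblast fusion genes were higher in 5 and lower in 9 of 20 (4 and 13 with library sizes alone). The mannose receptor MRC1 rose from 0.647 ± 0.407 to 3.31 ± 0.474 CPM (2.39 ± 0.24) and the Rac activator partner ELMO1 by 1.19; the tetraspanin CD9 (-0.61) and the ferlin DYSF (-0.53) fell, DYSF with overlap between the times. Membrane repair and caveolae genes were split 8 higher and 10 lower of 25 (5 and 14 with library sizes alone), with S100A10 at -1.28 and AHNAK2 at 1.20. Notch pathway genes were lower in 10 of 20 and higher in 2 (12 and 1 with library sizes alone), among them the receptors NOTCH3 (-0.75) and NOTCH1 (-0.36) and the targets HES1 (-0.54) and HES4 (-0.56).

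The largest rises included immediate early genes. EGR1, a zinc finger factor induced by growth factors and mechanical load, was at 1.63, 3.05, 3.37 and 2.70 CPM at 24 h and 229, 181, 219.7 and 181 CPM at 72 h (6.20 ± 0.12, edgeR adjusted p = 2.88e-27). Every 72 h library was above every 24 h library, as the rule that picked the largest rises required. EGR1 was at 3.08 CPM in proliferation. NR4A1, an orphan nuclear receptor of the same class, was at 9.17, 9.45, 8.11 and 6.59 CPM at 24 h and 368, 296, 266 and 308 CPM at 72 h (5.20 ± 0.091). FOS, a subunit of AP-1, was at 30.7, 25.8, 30.8 and 27.2 CPM at 24 h and 590, 550, 245 and 451 CPM at 72 h (4.01 ± 0.15). FOS and the ERK phosphatase DUSP5, at 1.19, 1.00, 1.26 and 1.32 CPM at 24 h and 30.3, 27.4, 12.2 and 24.4 CPM at 72 h (4.32 ± 0.23), had their lowest 72 h value in replicate 3, which was still far above 24 h. Of 41 immediate early and heat shock genes 27 were higher and 6 lower (21 and 11 with library sizes alone), with 15 higher at least 2-fold and a median of 0.38. NR4A2 (3.60), KLF2 (3.08) and DUSP1 (2.61) were among the rises. Summed over the list, levels were 5228 to 5332 CPM at 24 h and 7360 to 7977 CPM at 72 h. Genes of this list also respond to a change of medium and to handling before lysis; the labels used here do not time these steps, and their part in the rise was not tested.

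Other leading rises were in genes of varied function. CA13, a cytosolic carbonic anhydrase, was at 0.377, 0.627, 0.316 and 0.942 CPM at 24 h and 24.0, 23.7, 21.1 and 24.2 CPM at 72 h (5.35 ± 0.16, edgeR adjusted p = 8.42e-23). It had been at 1.17 CPM in proliferation and had fallen by 24 h (-1.04, adjusted p = 0.000992). GPX3, the secreted glutathione peroxidase, was at 22.9, 25.8, 25.4 and 26.9 CPM at 24 h and 407, 461, 355 and 443 CPM at 72 h (4.04 ± 0.087). RFTN1, a lipid raft protein, was at 4.84, 4.14, 4.26 and 4.02 CPM at 24 h and 96.5, 94.5, 90.7 and 109 CPM at 72 h (4.50 ± 0.069). The picking rule required no overlap between the times, and in these 3 genes every 72 h library was more than 10 times the highest of 24 h. KCNE4, a regulatory subunit of voltage-gated potassium channels, was at 1.45, 0.711, 0.579 and 0.816 CPM at 24 h and 38.4, 34.3, 18.2 and 33.9 CPM at 72 h (5.18 ± 0.22), with 72 h replicate 3 the lowest of its group. The tetraspanin TSPAN13 rose by 4.89 ± 0.16 and the kinesin KIF26B by 4.14 ± 0.13. In the table EGR1 (ENSBTAG00000010069) lies on chromosome 7 at 49826480 to 49830253, CA13 (ENSBTAG00000001000) on chromosome 14 at 77321781 to 77371704 and MKI67 (ENSBTAG00000002444) on chromosome 26 at 47507868 to 47537900, as the authors' table gives them; no source used here names the build.

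Glucocorticoid receptor targets were higher in 10 of 15 cases and lower in 2 (8 and 3 with library sizes alone), as ERRFI1 (1.95), which restrains the EGF receptor, CEBPD (1.37), the kinase SGK1 (1.06) and DUSP1, which the immediate early list also holds. Circadian clock genes were higher in 7 and lower in 8 of 22 (5 and 10 with library sizes alone), with RORA at 1.24, HLF at 1.13, NFIL3 at 0.88 and CRY2 at -0.74.

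Matrix genes rose and fell side by side, and the largest changes were upward. COL1A1, the main chain of type I collagen, took 4.00, 3.98, 4.31 and 3.94% of counts at 24 h and 5.59, 5.70, 5.31 and 5.45% at 72 h, a log2 change of 0.57 ± 0.039 on the TMM scale (edgeR adjusted p = 9.98e-14). All collagens listed took 13.8% ± 0.456 and 15.7% ± 0.353 (SD, n = 4; exact permutation p = 0.0286). For both shares each 72 h library exceeded each 24 h library. COL3A1 rose by 0.42 ± 0.056; its 72 h replicate 3 was above the other 3. COL15A1, a basement membrane collagen, went the other way, at 881, 916, 998 and 946 CPM at 24 h and 207, 216, 257 and 214 CPM at 72 h (-2.06 ± 0.053, edgeR adjusted p = 3.56e-24). COL8A2, of the type VIII network collagen, was at 11.4, 8.74, 9.90 and 9.04 CPM at 24 h and 41.8, 44.6, 41.0 and 40.9 CPM at 72 h (2.12 ± 0.093). Over 22 collagens 11 were higher and 6 lower (7 and 9 with library sizes alone, where the order turns).

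Among 49 matrix glycoproteins and proteoglycans 26 were higher, 10 of them at least 2-fold, and 13 lower (19 and 16 with library sizes alone). MGP, matrix Gla protein, an inhibitor of calcification, was at 4.33, 3.72, 3.53 and 4.21 CPM at 24 h and 58.5, 60.1, 56.3 and 63.5 CPM at 72 h (3.93 ± 0.10). MFAP2, a microfibril protein, was at 1.76, 2.17, 2.26 and 2.76 CPM at 24 h and 30.8, 31.3, 38.2 and 31.3 CPM at 72 h (3.88 ± 0.12). In both the groups were widely separated, and MFAP2 was highest in 72 h replicate 3. The leucine-rich proteoglycans ASPN (2.56) and DCN (1.37), CRTAC1 (2.44), the fibulin EFEMP1 (2.31) and the laminin chain LAMA2 of the muscle basement membrane (2.18) rose. LTBP1 (-1.18), which holds latent TGF-beta, and POSTN (-0.74 ± 0.046), a matricellular protein, fell. SPP1, osteopontin, was at 773, 756, 694 and 752 CPM at 24 h and 515, 499, 488 and 533 CPM at 72 h (-0.55 ± 0.053), with no overlap between the times.

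Enzymes acting on the matrix were split as well. Collagen processing genes were 16 higher and 7 lower of 29 (10 and 11 with library sizes alone, where the order turns), with LOXL4, a lysyl oxidase that crosslinks collagen, at 1140, 1161, 1252 and 1168 CPM at 24 h and 3540, 3440, 3209 and 3345 CPM at 72 h (1.52 ± 0.052). The prolyl hydroxylase P4HA1 rose by 0.86 and the transglutaminase TGM2 fell by 1.01. Matrix proteases and inhibitors were 15 higher and 9 lower of 33 (12 and 12 with library sizes alone, an even split). SERPINF1, an antiangiogenic serpin, rose by 2.19 ± 0.070, the inhibitor TIMP3 by 1.30, ADAMTS1 by 1.35 and MMP2 by 0.82; ADAMTS6 fell by 1.29 after an early change of 2.25. Integrins and adhesion receptors were 15 higher and 12 lower of 38 (11 and 18 with library sizes alone, where the order turns), with the glypican GPC1 at 1.23, the cadherin CDH11 at 0.98 and the hyaluronan and osteopontin receptor CD44 at -0.82.

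Because fibroblasts make the same matrix, their markers are given beside it. Fibroblast and fibro-adipogenic progenitor markers were 10 higher and 7 lower of 21 (8 and 9 with library sizes alone, where the order turns). The list holds COL1A1, and its summed level was 71560 to 78820 CPM at 24 h and 94940 to 106900 at 72 h. PDGFRA, the receptor that marks these progenitors, was at 48.9, 49.4, 52.0 and 49.2 CPM at 24 h and 45.3, 45.0, 51.0 and 43.8 CPM at 72 h, a log2 of -0.11 ± 0.060 that was not called (edgeR adjusted p = 0.132); it was called lower without 72 h replicate 3 (-0.16, adjusted p = 0.0318) and with library sizes alone (-0.24). CLEC3B (1.75) and OSR1 (0.99) rose and FBLN1 fell (-0.89), while CD34, DPT and PI16 were not analysed here. The part of such cells in the matrix changes was not tested.

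**Figure D4:**
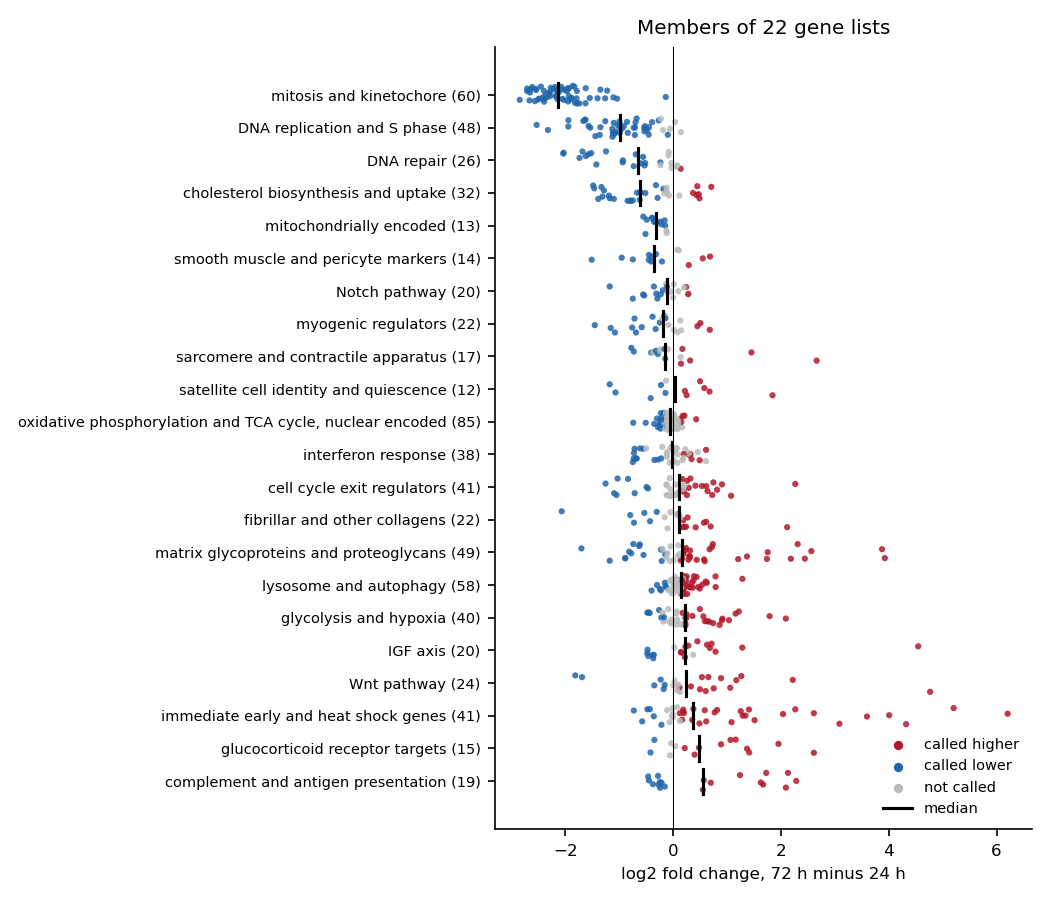
Log2 fold change from 24 h to 72 h in monoculture for the members of 22 gene lists, 1 point per gene (number measured in brackets), red where called higher, blue where called lower, grey where not called; black bars are medians. All 60 mitosis genes lie below 0 with a median of -2.13, also lower with library sizes alone; lists with medians near 0, such as collagens (0.12), hold points on both sides and their balance shifts with the scaling.

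Genes of several signalling pathways changed in level. In the insulin-like growth factor axis, which drives myoblast growth and differentiation, 12 of 20 genes were higher and 6 lower (8 and 6 with library sizes alone). IGFBP3, a secreted protein that binds and holds IGF, was at 1.95, 2.01, 2.11 and 1.70 CPM at 24 h and 50.1, 50.2, 35.1 and 47.0 CPM at 72 h (4.54 ± 0.15, edgeR adjusted p = 3.41e-21). All 72 h libraries lay far above 24 h, with replicate 3 the lowest of them. IGFBP4 (0.79), the insulin receptor INSR (1.28) and the adaptors IRS1 (0.63) and IRS2 (0.68) rose.

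Wnt pathway genes were 13 higher and 6 lower of 24 (11 and 6 with library sizes alone). SFRP4, a secreted Wnt antagonist, was at 2.95, 2.76, 1.84 and 2.76 CPM at 24 h and 48.8, 55.4, 119.9 and 57.5 CPM at 72 h (4.77 ± 0.24). Its 72 h replicate 3 stood far above the other 3, which were still far above 24 h, and without it the change was 4.38. Among ligands WNT9A (2.22) and WNT2B (1.17) rose and WNT5A was at 84.1, 85.5, 85.8 and 96.8 CPM at 24 h and 23.2, 27.8, 22.3 and 27.0 CPM at 72 h (-1.81 ± 0.061). The antagonist SFRP2 (1.26) rose, and the antagonist DKK2 fell (-1.69).

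In the TGF-beta and BMP pathway 17 of 48 genes were higher and 13 lower (14 and 17 with library sizes alone, where the order turns). Of that list 62.5% were called, against 53.9% of all genes, and its lower share was near the 26.6% of all genes. The ligand BMP6 rose by 1.99 ± 0.11 and BMP2 by 0.83, as did the BMP antagonists NOG (1.67 ± 0.099) and CHRD (1.12). The secreted target TGFBI (1.21) rose too. Growth factors and receptors were 18 higher and 8 lower of 36 (16 and 14 with library sizes alone). LIF, a cytokine that supports myoblast growth, was at 2.89, 2.84, 3.48 and 3.39 CPM at 24 h and 23.6, 21.9, 14.4 and 23.3 CPM at 72 h (2.73 ± 0.14). FGF7 (1.04), PDGFD (0.91) and VEGFA (0.92) rose. Targets of YAP and SRF were 13 higher and 15 lower of 40 (8 and 21 with library sizes alone), with ANKRD1 at 1.62, CCN1 at 0.92 and CCN2 at 0.61, against LPP at -0.67 and WWTR1, which encodes the coactivator TAZ, at -0.52.

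Genes of complement and antigen presentation moved in both directions, with the larger changes upward. All 19 complement and antigen presentation genes were called, 10 higher and 9 lower (9 and 9 with library sizes alone, an even split). Every change of at least 2-fold in this list was a rise, and its most negative value was -0.46. C1S, a protease of the first complement component, was at 7.54, 10.1, 8.16 and 8.98 CPM at 24 h and 33.4, 33.9, 43.6 and 43.7 CPM at 72 h (2.13 ± 0.10, edgeR adjusted p = 1.96e-17). C1R, its partner, rose by 2.09 ± 0.21, the inhibitor SERPING1 by 1.73 ± 0.17, clusterin CLU by 1.67 ± 0.064 and C3 by 1.63 ± 0.24. CFB was at 1.57, 2.17, 1.21 and 1.88 CPM at 24 h and 2.51, 2.48, 23.6 and 6.80 CPM at 72 h, and its rise (2.28 ± 0.64) was lost without 72 h replicate 3 (1.08, edgeR adjusted p = 0.128).

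Cytokines and NF-kB targets were 14 higher and 7 lower of 31 (14 and 11 with library sizes alone). IL6, a cytokine that muscle cells also secrete, was at 1.70, 1.92, 1.47 and 0.942 CPM at 24 h and 21.1, 16, 15.5 and 28.1 CPM at 72 h (3.69 ± 0.38, edgeR adjusted p = 9.24e-10). All 4 libraries of 72 h were above those of 24 h, and they spread more. CXCL3 rose by 1.86 ± 0.20. CCL5 was at 2.77, 2.34, 2.32 and 2.32 CPM at 24 h and 3.09, 2.82, 21.2 and 5.69 CPM at 72 h; its rise (1.72 ± 0.45) was lost without 72 h replicate 3 (0.62, edgeR adjusted p = 0.107). Interferon response genes were 7 higher and 11 lower of 38 (4 and 14 with library sizes alone), 0 of them at least 2-fold. Of that list 47.4% were called, below the 53.9% of all genes, and its values ran from -0.75 to 0.61. Among its falls were IRF1 (-0.73), the peptide transporter TAP1 (-0.73) and the immunoproteasome subunits PSMB8 (-0.71) and PSMB9 (-0.75).

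Genes of cholesterol synthesis were mostly lower at 72 h. Of 32 genes of cholesterol synthesis and uptake 21 were lower and 6 higher, the same counts as with library sizes alone, with a median of -0.61. SQLE, the squalene epoxidase, was at 25, 25.2, 26.9 and 25.4 CPM at 24 h and 9.96, 8.52, 8.76 and 9.31 CPM at 72 h (-1.48 ± 0.071, edgeR adjusted p = 1.57e-17). HMGCS1, which makes HMG-CoA, was at 61.8, 56.1, 54.2 and 57.7 CPM at 24 h and 21.2, 24.9, 22.8 and 25.8 CPM at 72 h (-1.28 ± 0.057). Neither gene overlapped between the times, and HMGCS1 had already changed by -1.48 from proliferation to 24 h. The sterol sensor partner INSIG1 (-1.39), CYP51A1 (-1.33) and FDFT1 (-1.31) fell. Fatty acid metabolism and PPAR genes were 14 higher and 12 lower of 46 (8 and 17 with library sizes alone, where the order turns). Of that list 56.5% were called, near the 53.9% of all genes. The desaturase SCD fell by 1.65 ± 0.14, while its relative SCD5 rose by 1.20 and the lipid droplet protein PLIN2 rose from 83.2 ± 1.02 to 240 ± 15.5 CPM (1.53 ± 0.047).

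Glycolysis and hypoxia genes were 22 higher and 6 lower of 40 (18 and 9 with library sizes alone). PFKFB3, which makes the activator of phosphofructokinase, was at 6.66, 7.73, 6.42 and 6.53 CPM at 24 h and 32.3, 27.1, 26.3 and 31.5 CPM at 72 h (2.09 ± 0.11, edgeR adjusted p = 8.28e-17). NDRG1 (1.22), DDIT4 (1.16) and the hexokinase HK2 (1.04) rose. All 13 mitochondrially encoded genes had negative values, 11 of them called lower and 0 higher (0 higher also by unadjusted p and by DESeq2; 13 lower with library sizes alone), from -0.55 to -0.12. CYTB, of respiratory complex III, fell by 0.55 ± 0.059 after an early change of 1.02. Nuclear genes of oxidative phosphorylation and the citrate cycle were 5 higher and 20 lower of 85, a share below the 53.9% called over all genes (1 and 54 with library sizes alone). IDH2 (-0.74) and the muscle type cytochrome oxidase subunit COX7A1 (-0.51) fell. Genes of mitochondrial biogenesis and dynamics were 7 higher and 9 lower of 29 (4 and 14 with library sizes alone). Of that list 55.2% were called, near the 53.9% of all genes. The coactivator PPARGC1B was at -1.09 and the mitochondrial DNA factor TFAM at -0.50.

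Stress and turnover genes were near even in some lists and leaned higher in others. Over all genes 53.9% were called. The share was 65.9% in the ATF4 list, 55.8% in the NRF2 list, 62.1% in the lysosome list and 52.5% in the atrophy list. It was 46.3% for ribosomal proteins, 50% for ribosome biogenesis and 52.8% for aminoacyl-tRNA synthetase and initiation genes. Among 44 genes of ATF4 and endoplasmic reticulum stress 15 were higher and 14 lower (10 and 21 with library sizes alone, where the order turns), with PPP1R15A at 1.84, the chaperone HSPA5 at 1.14 and the cystine transporter SLC7A11 at -0.76. Of 43 genes of NRF2 and oxidative stress 13 were higher and 11 lower (8 and 15 with library sizes alone, where the order turns): GPX3, above, and HMOX1 (1.10) rose, and NQO1 fell (-0.85). Lysosome and autophagy genes were 29 higher and 7 lower of 58 (15 and 14 with library sizes alone), led by GPNMB (1.28), GABARAPL1 (0.79) and the cathepsin CTSS (0.63). Atrophy and protein breakdown genes were 11 higher and 10 lower of 40 (5 and 15 with library sizes alone, where the order turns). Small changes of the translation machinery also turned with the scaling: ribosomal proteins were 35 higher and 3 lower of 82 (8 and 18 with library sizes alone), ribosome biogenesis genes 19 and 2 of 42 (5 and 13), and aminoacyl-tRNA synthetase and initiation genes 13 and 6 of 36 (4 and 17). MYC, in the ribosome biogenesis list, rose by 0.82 ± 0.053.

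Markers of further cell types moved in both directions, apart from 4 endothelial, 2 leukocyte and 3 neural genes. Smooth muscle and pericyte markers were 9 lower and 3 higher of 14, the same with library sizes alone, with ANPEP at -1.51 and CSPG4 at -0.95 and a summed level of 20530 to 23190 CPM against 16620 to 18960. Of 4 endothelial markers FLT1 (-1.11) and ERG (-1.08) fell, VWF (-0.07) and EGFL7 (-0.04) were not called, and PECAM1, CDH5 and KDR were not analysed here (summed 101 to 114 and 41.1 to 59.6 CPM). The 2 leukocyte markers measured summed to 2.32 to 3.26 and 0.959 to 2.22 CPM, of which FCER1G fell (-0.90), and PTPRC was not analysed here. Adipocyte markers were 3 higher and 2 lower of 6 (2 and 2 with library sizes alone), with FABP4 at -1.43 and CEBPA at 2.29 (summed 88.7 to 95.2 and 70.1 to 80.0 CPM; ADIPOQ and PPARG were not analysed here). Bone and cartilage markers were 4 higher and 1 lower of 6, the same with library sizes alone, with ACAN at 2.43 and SOX9 at 0.84, and neural markers were 2 and 0 of 3 (1 and 0 with library sizes alone), with S100B at 1.02. The part of these cell types in the changes above was not tested.

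Most genes that changed at least 2-fold in monoculture also changed in coculture with fibroblasts over the same interval, and mitosis genes fell less there. In coculture 5756 genes (48.2%) were called between 24 h and 72 h. Of the 337 genes that rose at least 2-fold in monoculture, 312 were called higher in coculture (92.6%, against 24.4% of all genes), and of the 379 that fell, 355 were called lower (93.7%, against 23.8%). These genes were picked for their size in monoculture, which makes a smaller change elsewhere more likely, so their medians are a description: 1.47 in monoculture and 1.34 in coculture for the rises, -1.48 and -0.89 for the falls. The difference between the cultures was tested gene by gene as an interaction. It was called in 134 of the rises (39.8%), of which 116 were larger in monoculture and 18 smaller. Among the falls it was called in 271 (71.5%), of which 260 were larger in monoculture and 11 smaller. The monoculture libraries that picked these genes also enter the interaction test, so these counts are a description too. Over all genes that test called 2826 (23.7%), 1395 higher in monoculture (11.7%) and 1431 lower (12%). All 72 h coculture libraries and 2 of 4 at 24 h were sequenced in lane 7, so lane is partly confounded with this difference. With lane as a term 2417 genes were called, and with the 4 libraries rich in ribosomal RNA left out 2710. Only the coculture 24 h group holds both lanes, so the lane term rests on its libraries alone. Its replicate 2, in lane 6, held 4.07% ribosomal RNA. That fit therefore cannot settle the part of lane.

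Mitosis genes fell further in monoculture. The difference was called lower in 57 of 60 members and higher in 0 (0 also by unadjusted p and by DESeq2; 57 lower with lane as a term and 57 without the 4 libraries). MKI67 changed by -2.66 in monoculture and -1.28 in coculture, a difference of -1.39 ± 0.12 (edgeR adjusted p = 9.16e-10). For replication genes the difference was called lower in 33 of 48 and higher in 0 (1 by unadjusted p, 0 by DESeq2; 33 lower with lane as a term and 28 without the 4 libraries). HMGCS1 changed by -1.28 in monoculture and -1.28 in coculture, a difference of 0.00 ± 0.084 (adjusted p = 0.998).

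In the list of immediate early and heat shock genes, which were not separated, the difference was called higher in monoculture in 22 of 41 and lower in 5 (22 and 5 with lane as a term, 22 and 6 without the 4 libraries). DUSP5 had the largest difference (3.36 ± 0.38, edgeR adjusted p = 7.25e-08), with means of 1.20 and 23.6 CPM in monoculture and 2.10 and 4.12 in coculture. For EGR1 (2.85 ± 0.16) the means were 2.69 and 203 CPM in monoculture and 30.4 and 311 in coculture, so coculture was higher at both times, and by the larger ratio at 24 h. NR4A1 (2.53), NR4A2 (1.98), XIRP1 (2.21), the kinase PIM1 (1.86), the sphingolipid transporter SPNS2 (1.75) and ADAMTS14 (1.70) followed. ADAMTS14 rose in monoculture by 0.43 (edgeR adjusted p = 0.0168), which was not called with library sizes alone (0.30) or without 72 h replicate 1 (0.27). Measured sarcomere genes had the difference higher in 9 of 17 and lower in 0 (0 also by unadjusted p and by DESeq2; 9 and 0 with lane as a term, 9 and 2 without the 4 libraries, 8 and 2 with library sizes alone). This direction was not particular to that list. Smooth muscle and pericyte markers had 11 higher and 1 lower of 14, and YAP and SRF targets 25 and 4 of 40. Membrane repair and caveolae genes had 12 and 3 of 25. With library sizes alone these counts were 7 and 2, 14 and 8, and 4 and 5. Over all genes 11.7% were higher and 12% lower.

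Interferon and NF-kB genes differed the other way. The difference was lower in monoculture in 35 of 38 interferon genes (31 with lane as a term, 32 without the 4 libraries) and in 21 of 31 cytokine and NF-kB genes (17 and 22), and higher in 0 of either list, also by unadjusted p and by DESeq2. RND1, a small GTPase, changed by 0.38 ± 0.31 in monoculture, which was not called, and by 2.88 in coculture (-2.50 ± 0.42, edgeR adjusted p = 4.06e-05). SOD2 (-2.36), the NF-kB inhibitor TNFAIP3 (-2.17), the chemokine CXCL5 (-2.16), the RNA sensor IFIH1 (-2.05), the metallothionein MT2A (-1.95), the phospholipase PLA2G4A (-1.94) and SLFN11 (-1.78) had the largest differences in this direction. Of these, PLA2G4A (-1.77 ± 0.15), SLFN11 (-2.19 ± 0.12) and IFIH1 (-0.68, edgeR adjusted p = 0.0116) were called lower within monoculture, and the other 5 were not. SOD2, at 0.55 ± 0.25 there (edgeR adjusted p = 0.0575), lay close to the threshold. It was called higher by DESeq2 (adjusted p = 0.0383) and by edgeR in the 8 libraries alone (0.00435) or the 12 monoculture libraries (0.00173). EdgeR also called it with the replicate block (0.0372) and without 72 h replicate 1 (0.04) or 2 (0.0363). Values in these settings ran from 0.55 to 0.66. Its 72 h libraries were at 13.4, 13.1, 23.1 and 17.4 CPM. Without replicate 3, the highest of them, the change was 0.36 and not called (edgeR adjusted p = 0.252). CXCL5 (-0.25 ± 0.16, edgeR adjusted p = 0.194) was called lower with library sizes alone (-0.39, adjusted p = 0.0361), without 72 h replicate 3 (-0.41, 0.0338), with 72 h replicates 1 and 2 alone (-0.54, 0.0142) and without the 4 libraries rich in ribosomal RNA (-0.54, 0.000259). The call of IFIH1 was lost without 24 h replicate 2 (adjusted p = 0.0618), 72 h replicate 2 (0.054) or 72 h replicate 3 (0.0514). IL6, which rose in monoculture, rose further in coculture (5.33), a difference of -1.65 ± 0.61 (edgeR adjusted p = 0.0482). That call lay close to the threshold, and no alternative setting is given for it.

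**Figure D5:**
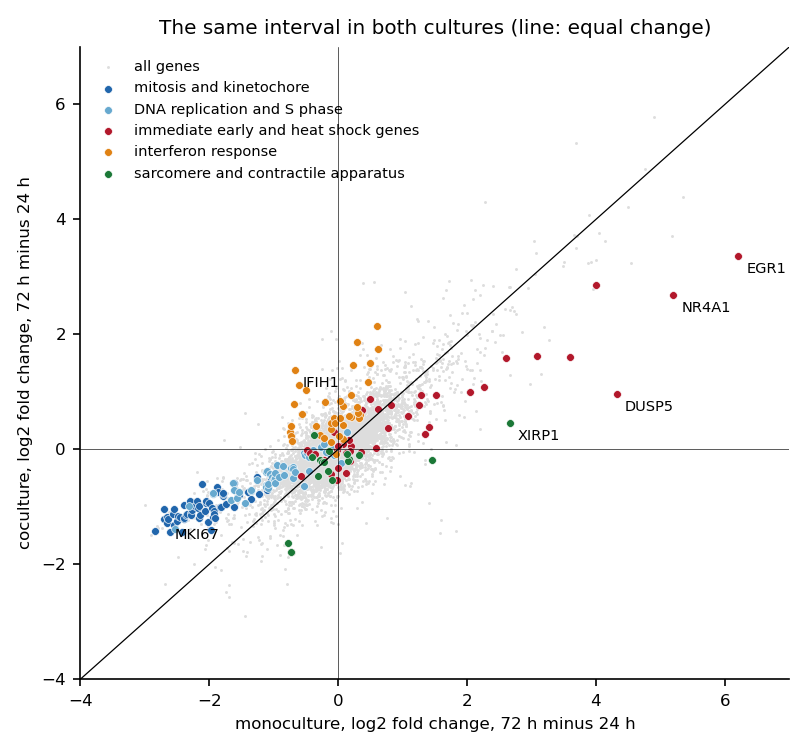
Log2 fold change from 24 h to 72 h in coculture (vertical axis) against that in monoculture (horizontal axis), 1 point per gene, grey for all genes and coloured for the members of 5 lists; the diagonal marks equal change. Mitosis genes lie at more negative values in monoculture (MKI67 -2.66 against -1.28), and EGR1 (6.20 against 3.35), NR4A1, DUSP5 and XIRP1 lie to the right of the diagonal.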

How the data were processed

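Gene counts per library were deposited by the authors as whole numbers in 1 table; the submitters' processing notes name STAR, RSEM, DESeq2 and FastQC, with no version, so these may be rounded estimates. No source used here gives the genome build. Of the table's library columns, 24 matched a label and 12 did not and were not used. Symbols came from a table of the authors.

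One edgeR quasi-likelihood model (edgeR 4.0.16, limma 3.58.1, R 4.3.3) with TMM scaling was fitted to all 24 libraries and 11937 genes, with 1 mean for each culture and time; filterByExpr removed 0 genes. P-values were adjusted by Benjamini-Hochberg over all genes, and a gene was called below 0.05. The difference between cultures was an interaction contrast. Shares of counts were compared by two-sided exact permutation. DESeq2 1.42.0, other scalings, filters, subsets of libraries, a replicate block and lane were tried as alternatives, and the scripts were tested on simulated data.

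Members and gene lists were chosen with earlier results of these data known. Genes named were the 12 largest rises and falls with no overlap, a unique symbol and at least 5 CPM, a set list of muscle, cell cycle and matrix genes, up to 6 called members of each list with the largest change and at least 2 CPM, any member described as not called, and the 8 largest differences between cultures in each direction. A few genes that met this rule are not reported here.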

Additional observations from a re-analysis of the deposited data

Results flagged for a closer look

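In 46 of 550 groups of 4 values, 1 library stood apart from the other 3. The ratio given for each gene is the distance of the highest or lowest library to its nearest neighbour over the range of the 4, and ratios above 0.829 are listed; chance alone gives about 1 group in 20. Most of these, 26, were in 72 h replicate 3, and 10 in 24 h replicate 1. At 72 h, replicate 3 was high for CCL5 (0.844), CCN2 (0.912), CCND1 (0.908), CD44 (0.829), CDH11 (0.918), COL3A1 (0.873), CRYAB (0.953), DKK2 (0.878), EFEMP1 (0.894), HDAC9 (0.936), MFAP2 (0.929), MFAP5 (0.872), MMP2 (0.924), MYL4 (0.833), ND3 (0.855), P3H2 (0.925), P4HA3 (0.907), SERPINF1 (0.898), SFRP4 (0.878) and TIMP3 (0.922). It was low for CA13 (0.849), CENPF (0.921), CRTAC1 (0.977), FDFT1 (0.893), NEK2 (0.867) and TGM2 (0.922). At 24 h, replicate 1 was high for ANKRD1 (0.891), CCL5 (0.946) and MRC1 (0.933) and low for ATP6V0D1 (0.835), CCND1 (0.899), CCNF (0.845), COL24A1 (0.844), NDC80 (0.839), TAP1 (0.855) and TOP2A (0.903). Replicate 2 at 24 h was high for LIN9 (0.859). Replicate 3 at 24 h was high for the share of counts from collagens (0.947) and PDGFRA (0.847) and low for CRTAC1 (0.831). Replicate 4 at 24 h was high for LPP (0.917) and WNT5A (0.868) and low for FLT1 (0.852). Replicate 1 at 72 h was high for ATF5 (0.899). Replicate 2 at 72 h was low for FABP4 (0.831). Replicate 4 at 72 h was high for PLIN1 (0.962). 

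The change from 24 h to 72 h differed between the cultures in edgeR's interaction test in 150 of the 270 named genes reported, and by at least 1 on the log2 scale in 59. Over all genes that test called 23.7%. The 8 largest differences in each direction were picked by this same test. Most other named genes were picked for their change in monoculture, which enters the test, so the counts are a description. Values are the change in monoculture minus that in coculture, with all libraries. Monoculture 72 h replicate 3 stood apart in some of these genes. Without it CRYAB fell further in monoculture (-1.13), and its difference without that library is not given. More positive in monoculture were DUSP5 (3.36), EGR1 (2.85), NR4A1 (2.53), NR4A2 (1.98), PIM1 (1.86), KLF2 (1.46), ERRFI1 (1.39), BTG2 (1.18), FOS (1.15), ATF3 (1.07), DUSP1 (1.01), XIRP1 (2.21), SPNS2 (1.75), ADAMTS14 (1.70), MYL4 (1.64), ADAMTS1 (1.6), NOG (1.54), KCNE4 (1.46), HDAC9 (1.45), IGFBP3 (1.30), ENO3 (1.07), CRYAB (1.06), WNT9A (1.03) and CASQ2 (1.01). Genes of replication, repair and mitosis were more negative in monoculture: TOP2A (-1.67), NEK2 (-1.53), TROAP (-1.49), CENPF (-1.48), ERCC6L (-1.48), KNL1 (-1.47), CCNF (-1.43), KIF20A (-1.43), NDC80 (-1.42), HJURP (-1.40), MKI67 (-1.39), SHCBP1 (-1.37), CLSPN (-1.34), CCNB1 (-1.23), FANCI (-1.21), RRM2 (-1.19), UHRF1 (-1.16), E2F8 (-1.14), BRCA1 (-1.07) and POLE2 (-1.05). Other genes more negative there were RND1 (-2.50), SOD2 (-2.36), TNFAIP3 (-2.17), CXCL5 (-2.16), IFIH1 (-2.05), MT2A (-1.95), PLA2G4A (-1.94), SLFN11 (-1.78), IL6 (-1.65), IRF7 (-1.48), ADAMTS6 (-1.13), IRF1 (-1.13), CLU (-1.09), ADAMTS9 (-1.04) and PSMB9 (-1.04). Of the 8 coculture libraries compared, the 4 of 72 h and 2 of 24 h came from lane 7 and all monoculture libraries from lane 6. The part of lane in these differences was examined only by the fit with lane as a term. That term rests on the 24 h coculture libraries alone, and its counts are given with the scaling alternatives.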

How the results depend on the processing

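The count of genes called between 24 h and 72 h ran from 5570 (the 8 libraries alone) to 6622 (library sizes alone) over 20 settings, against 6430. The scaling set the balance of directions: library sizes alone gave 1788 higher and 4834 lower, in place of 3255 and 3175. With a mean of at least 5 CPM, 220 genes rose at least 2-fold in place of 337, because fewer genes were tested. RLE scaling gave 6429 genes and DESeq2 6265. Without 1 library at a time, genes called numbered 5986 to 6332, higher 3031 to 3184 and lower 2938 to 3148. Those called at 2-fold or more numbered 708 to 737, higher 331 to 351 and lower 370 to 398. The interaction called 2435 to 2910 and the early comparison 7795 to 8314 without 1 library. The difference in the share of ribosomal RNA was 0.199 to 0.819 percentage points and in that of mitochondrial genes -0.729 to -0.579. Added after seeing the data were lane as a term, with 2417 genes in the interaction, and leaving out the 4 libraries rich in ribosomal RNA, with 5733 called and 2710 in the interaction.

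Of 266 named genes called, 254 were called in the same direction in every setting that tested them. Most were picked as called genes with a large change, which favours this, so the count does not speak for all called genes. The sign turned only in genes that were not called: CDKN1A gave -0.06 with library sizes alone and 0.00 without 24 h replicate 1 (0.00 to 0.10 without 1 library), RND1 gave -0.07 with 72 h replicates 1 and 2 alone and -0.07 without the 4 libraries, and MT2A gave 0.05 without 24 h replicate 3, 0.09 without 72 h replicate 1 and 0.07 without 72 h replicate 2 (-0.21 to 0.09 without 1 library). The cause was not tested. Same-numbered libraries of 24 h and 72 h deviated from their group means with correlations of -0.059, 0.154, -0.088 and 0.146, so the numbers were not taken as pairs. With a replicate block 6355 genes were called, and MT2A stood at 0.00. Genes below 6 counts in any library are not listed, so silencing or full induction could not be seen.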

Other observations

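Gene families chosen by name after their values were seen gave further descriptions, with no test of the family. Their counts stand against 27.3% of all genes called higher and 26.6% lower. Lamins, the filaments under the nuclear envelope, were all lower: LMNB1 fell from 25.8 to 6.36 CPM (-2.02 ± 0.085, edgeR adjusted p = 5.35e-19), LMNB2 was at -1.08 and LMNA at -0.32. Nucleoporins were lower in 13 of 20 cases and higher in 0 (20 and 0 with library sizes alone). Kinesins were lower in 19 of 30 and higher in 4 (21 and 3 with library sizes alone), and CEP proteins of the centrosome lower in 17 of 35 and higher in 2 (22 and 0).

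Subunits of the V-type proton pump, which acidifies lysosomes, were higher in 13 of 16 cases and lower in 0, with a median of 0.39; with library sizes alone 10 were higher and 3 lower. Solute carriers held some of the large rises, SLC6A6, a taurine transporter, from 2.33 to 36.2 CPM (3.95 ± 0.14) and SLC1A1, a glutamate transporter, from 0.878 to 13.5 CPM (3.90 ± 0.17). Of 188 of them 62 were higher and 34 lower, an order that turned with library sizes alone (34 and 65). The share of solute carriers called in either direction was near the 53.9% of all genes. TRIM proteins, many of them ubiquitin ligases, were lower in 18 of 35 and higher in 2 (22 and 1 with library sizes alone). RAB GTPases of membrane traffic were higher in 28 of 51 and lower in 9, against 11 and 12 with library sizes alone. Zinc finger genes named ZNF were lower in 73 of 255 and higher in 36 (119 and 17 with library sizes alone). Their lower share was near the 26.6% of all genes. Semaphorins were even, 6 higher and 6 lower of 14 (5 and 6 with library sizes alone).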
